A study of Mus musculus with 1 sample.

Results

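The early-response and Id genes Myc, Mycn, Jun, Jund, Ier2, Ier3, Egr1, Id1, Id2 and Id3 were examined for the poly(A) tails of their transcripts in wild-type mouse epiblast-like cells (EpiLCs). The 10 genes were chosen by symbol, and a transcript was counted for a gene when its gene identifier in the deposited table carried that symbol in the GENCODE annotation of the mouse genome GRCm38 (mm10). They held 315 of the 701976 transcripts of nuclear genes. Transcripts of 8 of the 10 genes were found, 5 genes had the 10 transcripts set as the minimum for a gene value, and 3 genes (Myc, Mycn and Ier2) reached that minimum in each replicate.

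The cells were wild-type ESCs of the ICR strain, taken 24 h into EpiLC formation in N2B27 medium with activin A, bFGF and KSR, on Matrigel. PAIso-seq, which reads full-length cDNA together with the whole tail on the PacBio platform, was applied to 2 barcoded replicates of this single group. The wider study asked how the deadenylase Cnot8 acts on mRNA during this transition, but the Cnot8 KO cells were not analysed here, so there was no contrast between groups and no test was run. The study calls its replicates independent, but neither it nor the labels say whether they came from separate cultures, so the SD over 2 replicates may be technical.

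Immediate early genes are switched on by growth factor signals without new protein synthesis, and many of their mRNAs are short-lived. Decay of such mRNAs commonly begins with removal of the poly(A) tail by the Ccr4-Not complex, which can be recruited by proteins that bind AU-rich elements in the 3′ UTR. Myc and Mycn are transcription factors that work with Max, Jun and Jund are subunits of AP-1, Egr1 is a zinc finger transcription factor downstream of ERK, and Ier2 and Ier3 encode small early-response proteins. Id proteins lack a DNA-binding region and hold E proteins away from DNA, and Id1, Id2 and Id3 are well-known targets of BMP signals. mRNA decay was not measured here, so "labile" is background for these genes and not a property that was tested.

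AU-rich elements are built around the pentamer ATTTA, and a window of the annotated 3′ UTR is printed for each gene below. The window was chosen as the one with most pentamers, so it is not a typical stretch. Each line gives 26 bases of the transcript strand, 5′ to 3′, in GRCm38, with every ATTTA in capitals. Ier2, Id1 and Id3 lack a pentamer in the annotated 3′ UTR, and the sites of Egr1 are not printed. 

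Myc, chr15:61990136-61990161, plus strand: aacagatttgtATTTAattgtttttt

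Mycn, chr12:12936151-12936176, minus strand: aaaatgtatatATTTAgtgctgcacc

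Jun, chr4:95049209-95049234, minus strand: cATTTAtaatcataggaaagATTTAg

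Jund, chr8:70700360-70700385, plus strand: gattccgccctATTTAtgtttctact

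Ier3, chr17:35822486-35822511, plus strand: aattaatATTTAtgtATTTAtgtata

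Id2, chr12:25094357-25094382, minus strand: gtgataccgttATTTAtgagagactt

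The windows of Jun and Ier3 hold 2 pentamers each, and those of Myc, Mycn, Jund and Id2 hold 1. They do not give the number in the whole 3′ UTR, which is 5 in Ier3, 4 in Jun, 3 in Id2 and 2 in Myc. A pentamer is a match of letters and was not tested as a binding site.

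Sequencing gave 246316 nuclear transcripts in replicate 1 and 455660 in replicate 2, so that 3 reads corresponded to 12.2 and 6.58 CPM (transcripts of a gene per 1000000 nuclear transcripts, with no scaling by length). Each read was counted as a transcript, although amplified copies of the same cDNA could not be told apart. All 5 fixed markers of pluripotent cells and all 5 of the formative state were detected, with summed levels of 1506 and 1159 CPM, and of 1734 and 1372 CPM, in replicates 1 and 2. Naive markers were found for 7 of 8 genes, with Prdm14 at 0 reads and Klf4 at 1 read, and summed to 658 and 937 CPM. Zfp42 alone gave 524 and 816 CPM of these sums. Of the streak and mesoderm, endoderm and fibroblast feeder markers, 1 of 3, 1 of 4 and 1 of 4 were detected, at most 12.2 CPM when summed.

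Taken by number, the 10 genes formed nearly the same share of the nuclear transcripts in both replicates, with 110 transcripts or 447 CPM in replicate 1 and 205 transcripts or 450 CPM in replicate 2. Mycn gave 40.6% of these transcripts, Ier2 30.2%, Myc 15.9%, Jund 7.30%, Id3 3.49% and Id2 1.90%. Ier3 and Egr1 were each found once, in replicate 2. Jun and Id1 had no read in either replicate, which allows up to 4.27 CPM over both, and none appeared among the reads of lower quality either. In these bulk samples, fewer cells that express a gene and less RNA per cell cannot be told apart. Each read stands for a cDNA molecule without a molecular identifier, so all intervals below cover counting error only.

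Myc (chr15:61985391-61990374, plus strand) carried the shortest tails of the tested members over both replicates and in replicate 2, whereas Mycn was shorter in replicate 1. The 10 transcripts of replicate 1 ranged from 9 to 226 nt with a median of 79.5 nt, and the 40 of replicate 2 from 1 to 166 nt with a median of 43.5 nt. The range of replicate 1 overlapped that of replicate 2, but only replicate 2 held tails of 1 to 5 nt, 4 of them. The geometric mean, which was used as the tail length of a gene, came to 63.2 nt for the first of these replicates and 37.2 nt for the other, with an SD of 18.4 nt (n = 2). Over both replicates it was 41.3 nt, and 7.15% of the 7146 tested nuclear genes had a shorter one. The arithmetic mean, which gives short tails less weight, was 65.3 nt. The replicates of Myc differed by 26.04 nt, more than did those of 78.7% of genes with 30 to 99 transcripts. The number of Myc transcripts differed as well, with 40.6 CPM in replicate 1 and 87.8 in replicate 2.

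Mycn (chr12:12936093-12941914, minus strand) had a set of very short tails beside a majority of ordinary length. The 52 tails of replicate 1 ran from 5 to 242 nt with a median of 76 nt, and the 76 of replicate 2 from 6 to 215 nt with a median of 86.5 nt. The geometric means were 56.1 and 67.1 nt (SD 7.75, n = 2), and 62.4 nt over both, so that 24.9% of tested genes were shorter. The very short tails, of 6 to 15 nt, numbered 8 of 52 in replicate 1 (15.4%, 95% Wilson interval 8.01 to 27.5%) and 9 of 76 in replicate 2 (11.8%, 6.36 to 21.0%). Of all nuclear transcripts, 1.38% and 1.44% were of that length. With 17 of 128 transcripts or 13.3% (8.46 to 20.2%) over both replicates, Mycn was 1 of 11 among 1517 genes with at least 100 transcripts (0.725%) that reached such a share. The length window was chosen after the tails of Mycn had been seen, so this is a description. Between 16 and 30 nt Mycn had 7 tails, and of 1 to 5 nt it had 1.

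**Figure D1:**
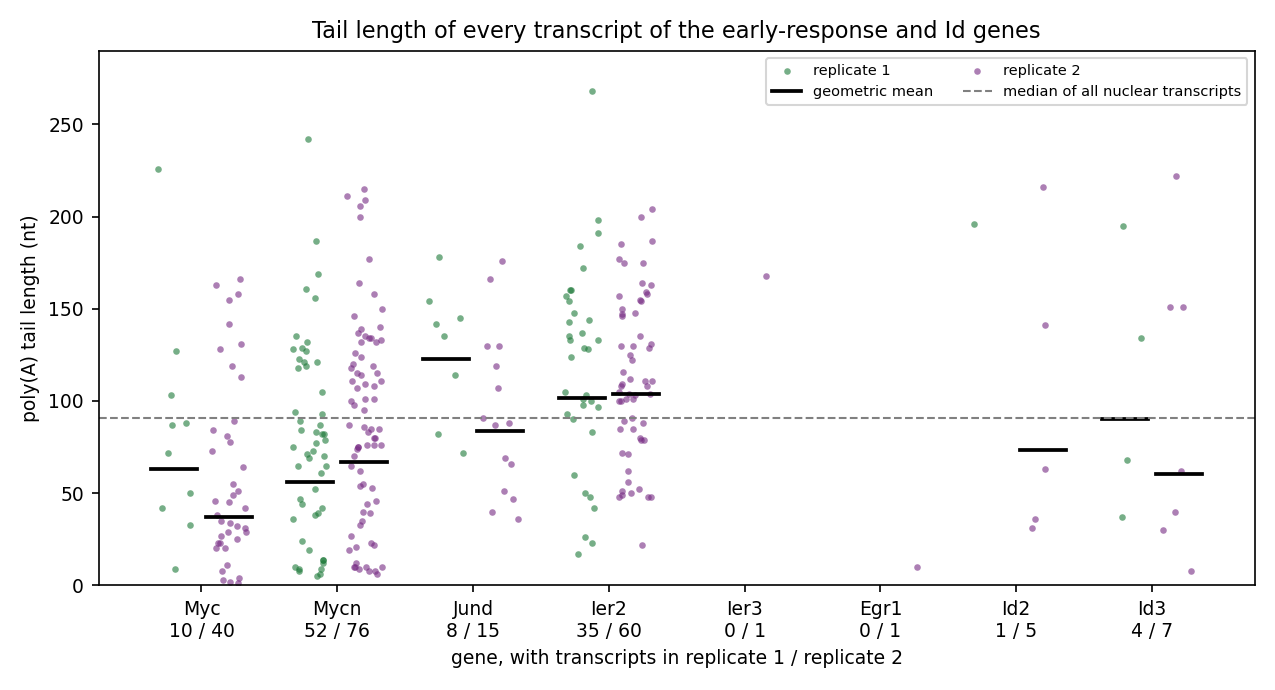
Tail length in nt (y axis) of every transcript of the 8 detected genes (x axis, with transcript numbers), replicate 1 in green and replicate 2 in purple, with horizontal offsets only for legibility. Black bars are geometric means (drawn from 2 transcripts up) and the dashed line is the 91 nt median of all nuclear transcripts. Mycn shows a cluster of tails of 6 to 15 nt in both replicates, while no Ier2 tail was shorter than 17 nt.

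Several of the very short Mycn tails ended in T. They are printed here 5′ to 3′ as read, in DNA letters, with bases other than A in capitals, because they are the tails in which the last base can be compared with those of other genes.

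Mycn, replicate 1, 8 nt: aaaaaaaT

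Mycn, replicate 1, 9 nt: aaaaaaaaT

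Mycn, replicate 1, 10 nt: aaaaaaaaaT

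Mycn, replicate 1, 12 nt: aaaaaaaaaaTT

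Mycn, replicate 1, 14 nt: aaaaaaaaaaaaaT

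Mycn, replicate 2, 12 nt: aaaaaaaaaaaT

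The 6 sequences above are 6 of the 17 Mycn tails of 6 to 15 nt (35.3%, 17.3 to 58.7%). The replicates differed, with 5 of 8 in replicate 1 (62.5%, 30.6 to 86.3%) and 1 of 9 in replicate 2 (11.1%, 1.99 to 43.5%), and their intervals overlapped. Of all nuclear tails of that length, 32.5% in replicate 1 and 20.9% in replicate 2 ended in T, so the order of the replicates was the same there. A share at least as high as that of Mycn was found in 115 of 388 genes with 6 or more such tails (29.6%), with a median over these genes of 24.7%. The T ends of Mycn therefore lay within the range that is common among short nuclear tails. The genome holds no run of 6 or more A in the last 500 bases of annotated Mycn or the 50 bases beyond it, nor in those of Ier2.

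Of the AP-1 genes, Jund (chr8:70698949-70700616, plus strand) had a value above the median of all genes, with a wide gap between the replicates. Its 8 transcripts of replicate 1 had a lowest tail of 72, a median of 138.5 and a highest of 178 nt, and the 15 of replicate 2 had 36, 88 and 176 nt. No Jund tail was of 30 nt or less. The geometric means were 123 nt in replicate 1, where Jund fell short of 10 transcripts, and 83.7 nt in replicate 2 (SD 27.6, n = 2), and 95.6 nt over both. In the pooled ranking 85.1% of tested genes were shorter. In replicate 2, the only one with enough transcripts, the share was 63.7%, and the value lay below the upper quartile of 90.3 nt. The 39.0 nt between the replicates exceeded that of 71.6% of genes with 10 to 29 transcripts, and Jund had 23 transcripts in all. An antisense gene, Gm11175, overlaps Jund in the annotation and had no transcript here. Jun (chr4:95049034-95052222, minus strand) and its annotated antisense partner Junos had none.

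Ier2 (chr8:84661331-84662852, minus strand) carried the longest tails of the tested members over both replicates and in replicate 2. In replicate 1 Jund was longer, on 8 transcripts. Among the tested members the geometric mean of Ier2 was the most even between replicates, but the median of Mycn was more even (SD 7.42 against 13.8 nt). The 35 Ier2 tails of replicate 1 had a lowest value of 17, a median of 128 and a highest of 268 nt, and the 60 of replicate 2 had 22, 108.5 and 204 nt. The geometric means of 102 and 104 nt differed by 2.12 nt (SD 1.502, n = 2), a smaller difference than in all but 8.33% of genes with 30 to 99 transcripts. Over both replicates the value was 103 nt, and 91.9% of tested genes were shorter. Tails of over 90 nt made up 26 of 35 transcripts in replicate 1 (74.3%) and 41 of 60 in replicate 2 (68.3%), against 50.6% of all nuclear transcripts in each. The number of transcripts was also steady, with 142 and 132 CPM. Over both replicates Ier2 and Myc lay at opposite ends of the members' ranking. By replicate, the lower Ier2 value was 102 nt and the higher Myc value 63.2 nt, from 10 transcripts. The pair was picked by these same values, so the gap between them is a description.

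Ier3 (chr17:35821684-35822923, plus strand) and Egr1 (chromosome 18, 34859823 to 34864984, plus strand) gave 1 tail each, of 168 nt and of 10 nt. A single tail gives no value for a gene, and 1 read lay below the 3-read limit.

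The Id genes were scarce. Id3 (chr4:136143497-136145755, plus strand) had tails of 37, 68, 134 and 195 nt in replicate 1 and of 8, 30, 40, 62, 151, 151 and 222 nt in replicate 2. The tails of each replicate were spread over most of the length range and overlapped. The geometric means were 90.05 and 60.6 nt (SD 20.8, n = 2), and 70.0 nt over both, with 37.9% of tested genes shorter. Id2 (chr12:25093799-25097140, minus strand) had 1 tail of 196 nt in replicate 1 and tails of 31, 36, 63, 141 and 216 nt in replicate 2, too few for a gene value. Id1 (chr2:152736251-152737410, plus strand) had no transcript. Id3 and Id2 were found at 15.7 and 8.55 CPM over both replicates.

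**Figure D2:**
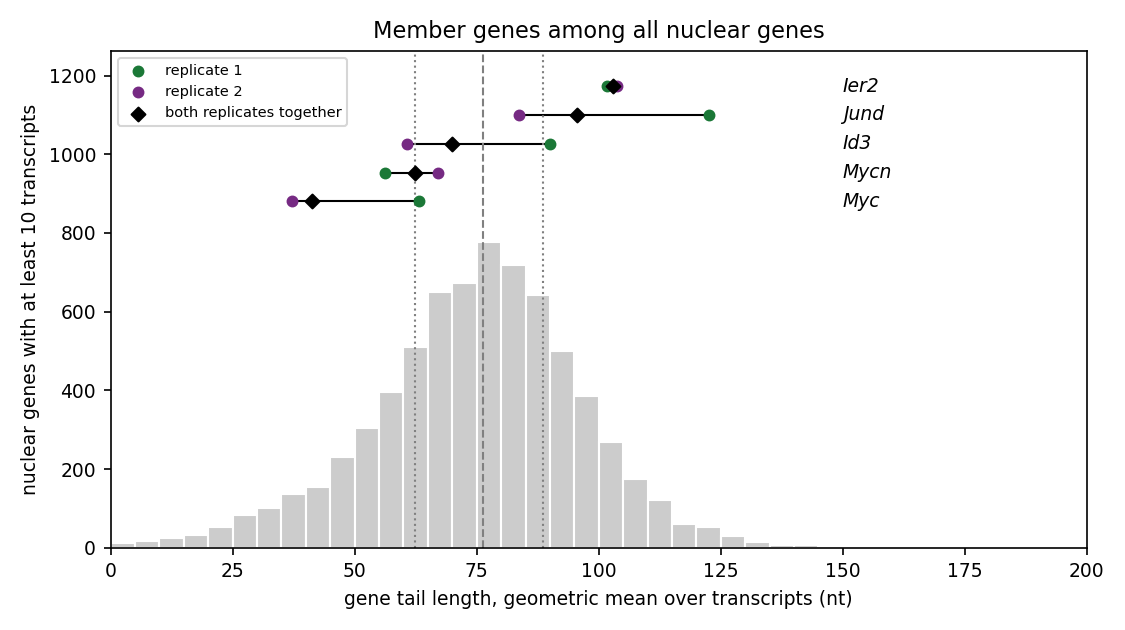
Histogram of the gene tail length (geometric mean in nt, x axis) of the 7146 nuclear genes with at least 10 transcripts (y axis, number of genes), with the 5 tested members above it. Dots give each replicate (Jund with 8 and Id3 with 4 and 7 transcripts included), diamonds both together, the dashed line the median of 76.4 nt and dotted lines the quartiles of 62.4 and 88.6 nt. Both dots of Ier2 lie above the upper quartile, and Myc lies below the lower one except in replicate 1 (63.2 nt), where it was below that replicate's own quartile of 65.9 nt.

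As a group the tested members did not share a tail length. Over both replicates their values ran from 41.3 nt (Myc) through 62.4 (Mycn), 70.0 (Id3) and 95.6 (Jund) to 103 nt (Ier2), a 2.49-fold range. Neighbours in this order differed by less than the larger SD of the pair, except Myc and Mycn, whose replicate values overlapped all the same. Of the 5 genes, 3 lay below the median of all tested genes (76.4 nt), 2 below the lower quartile and 2 above the upper quartile. The median of the members was 70.0 nt, 6.36 nt below that of all genes. The difference was -14.8 nt in replicate 1 with 3 members and -1.40 nt in replicate 2 with 4 members (mean -8.09, SD 9.47, n = 2). Jund counted only in replicate 2, so this SD also holds a change of genes. With Myc, Mycn and Ier2 alone, the middle gene was Myc in replicate 1 (-14.8 nt) and Mycn in replicate 2 (-9.69 nt). With a minimum of 20 transcripts per gene, which left out Id3, the members' median was 2.43 nt above that of all genes.

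Genes with 10 transcripts in each replicate were also placed by their quartile in both. Of 4286 such genes, 489 (11.4%) lay below the lower quartile in each replicate, and of the 3 members in this set Myc did. In the other direction 601 genes (14.0%) lay above the upper quartile in each, and of the 3 members Ier2 did. Mycn was below the lower quartile of 65.9 nt in replicate 1 and above that of 61.3 nt in replicate 2. Counts of 1 of 3 are too few to set against those shares.

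Over single transcripts, the members came close to all nuclear transcripts in the middle of the distribution and had more short tails. Their median tail was 89 nt (order-statistic interval 83 to 101 nt), with 93 nt in replicate 1 and 88 nt in replicate 2, beside 91 nt in each replicate for all nuclear transcripts. Tails of 1 to 30 nt made up 47 of the 315 member transcripts (14.9%, 11.4 to 19.3%) and 10.6% of all nuclear transcripts. By replicate the members' shares were 13.6% (8.44 to 21.3%) and 15.6% (11.3 to 21.2%), beside 10.1% and 10.8% of all nuclear transcripts. The interval of replicate 1 included the share of all nuclear transcripts. Mycn and Myc held most of the members' tails of this length. The share was 25 of 128 in Mycn (19.5%, 13.6 to 27.2%) and 15 of 50 in Myc (30.0%, 19.1 to 43.8%), but 4 of 95 in Ier2 (4.21%, 1.65 to 10.3%) and 0 of 23 in Jund. Without Mycn the share fell to 11.8% (7.90 to 17.2%), and the interval then included that of all nuclear transcripts. Without Ier2 it was 19.5%.

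The 3 genes with most transcripts spread their short tails differently. In Myc the share of 1 to 30 nt was 1 of 10 in replicate 1 (1.79 to 40.4%) and 14 of 40 in replicate 2 (22.1 to 50.5%), and these intervals overlapped. All but 1 of these tails came from replicate 2, which also held most of the Myc transcripts. In Mycn the share was 11 of 52 and 14 of 76, and nearly the same in both. Tails of over 90 nt made up 24.0% of Myc, 43.0% of Mycn and 70.5% of Ier2 (60.7 to 78.8%) over both replicates.

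**Figure D3:**
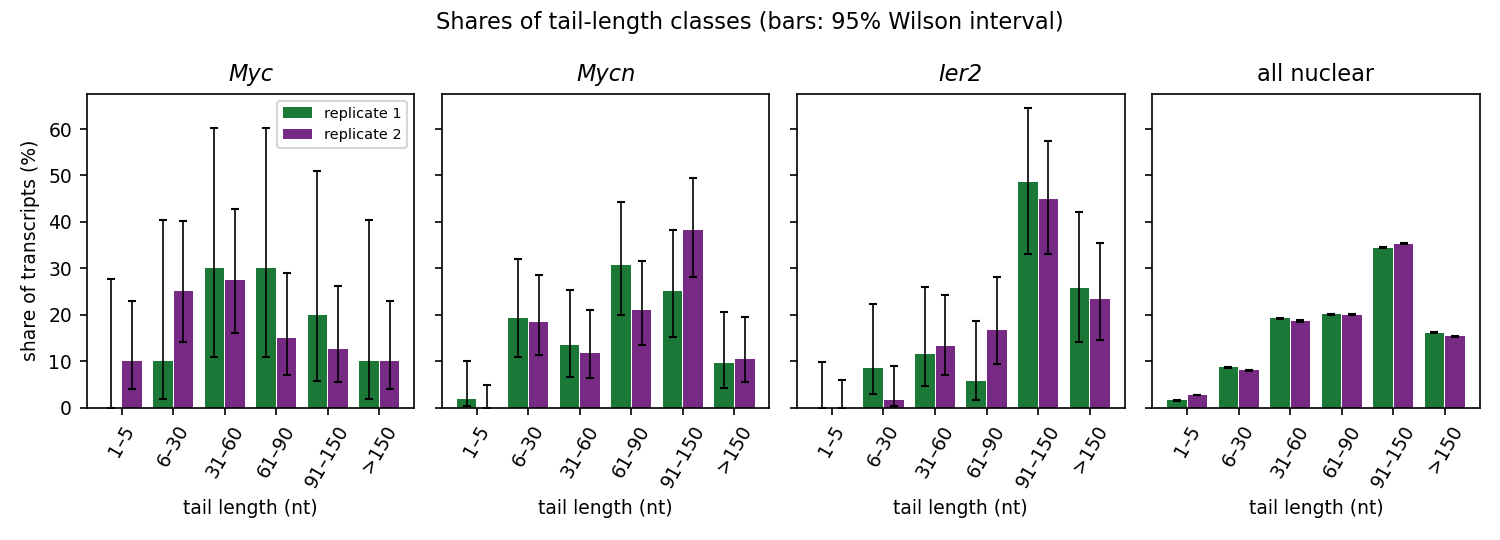
Share of transcripts in percent (y axis) in 6 classes of tail length in nt (x axis) for Myc, Mycn, Ier2 and all nuclear transcripts, replicate 1 in green and replicate 2 in purple, with 95% Wilson intervals as error bars. Ier2 has its highest bars at 91 to 150 nt and Mycn a raised bar at 6 to 30 nt in both replicates. Myc has higher bars at 1 to 5 and 6 to 30 nt in replicate 2 than in replicate 1, with overlapping intervals.

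The share of tails with a base other than A was near that of all nuclear tails. Such bases were found in 29 of 315 tails (9.21%, 6.49 to 12.9%), with 15 of 110 in replicate 1 (13.6%) and 14 of 205 in replicate 2 (6.83%). All nuclear tails had them in 12.2% and 9.55%, so both sets were higher in replicate 1. By gene the counts were 13 of 128 tails in Mycn, 8 of 95 in Ier2, 3 of 50 in Myc, 3 of 23 in Jund and 0 of 11 in Id3. T was the last base of 9 member tails (2.86%), of which Mycn held 8 and Jund 1, beside 3.06% of all nuclear tails. Ier2 had no tail that ended in T, and its 8 tails with another base held G in 4, C in 3 and T in 1. One of them shows such a base inside a short tail.

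Ier2, replicate 1, 17 nt: aaaaaaaaaaaaaaGaa

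In Myc, 2 tails of 45 and 84 nt in replicate 2 both had T as the sixth base and A elsewhere. The same first 8 letters occur in the genome 38 bases before the annotated end of Myc (chr15:61990336-61990343), and whether these letters were copied from the gene was not tested. The last 500 bases of annotated Myc and the 50 bases after it hold 3 runs of 6 or more A, the longest of 7.

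In the annotated 3′ UTR (the longest of each gene), ATTTA was found in 7 of the 10 members and in 71.5% of 6751 tested protein-coding genes. These sets are unlike, since only 5 of the 10 members had the transcripts to be tested. Of those 5, Myc, Mycn and Jund held ATTTA, and Ier2 and Id3 did not. The stricter nonamer TTATTTATT, which contains the pentamer, was found in 0 of 10 members and in 7.55% of tested genes. Both motifs were searched on the transcript strand only. Per kb of 3′ UTR, Ier3 held most with 8.16 pentamers (5 in 613 bases), followed by Myc with 4.29 (2 in 466), Id2 with 3.82 (3 in 785), Jun with 3.24 (4 in 1233), Jund with 1.88 (1 in 533), Egr1 with 1.64 (2 in 1216) and Mycn with 1.10 (1 in 913). The median gene held 1.45 per kb. Ier2, Id1 and Id3 held none in 755, 563 and 536 bases. Among the tested members over both replicates, the gene with the shortest tails (Myc) had the highest pentamer density and the gene with the longest (Ier2) had none. This did not hold through the list, since Id3 also had none with a tail length of 70.0 nt, and Mycn, which was shorter than Myc in replicate 1, had the lowest density above 0. Over 5 genes this order is a description only. The mRNAs of Ier2 (1522 bases), Jund (1668) and Id3 (1278) were shorter than those of Myc (2186) and Mycn (2674), and all of these were under the 3029-base median of tested protein-coding genes. Across all of those genes, which are not independent replicates, Spearman's rho of tail length was -0.36 with mRNA length and -0.25 with pentamers per kb.

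Gene lists around the members gave a wider view of the same pathways. Of 33 other immediate early genes in the annotation, 25 had a transcript and 11 had a gene value, with a median of 67.1 nt. Of these 11, 9 lay below the median of all tested genes, 3 below the lower quartile and 0 above the upper quartile. The shortest by the fixed naming rule was Trib1, a pseudokinase gene, with 51.6 nt from 38 transcripts (SD 10.99, n = 2). Mcl1, which encodes a short-lived survival protein of the Bcl2 family, had the most transcripts (416) and 68.4 nt (SD 1.90). Rhob, Zfp36l2 and Klf10 had 67.1, 69.7 and 71.8 nt. Zfp36l2 encodes a protein that itself binds AU-rich elements. In none of the 11 did the tail reach the 95.6 nt of Jund or the 103 nt of Ier2, the highest being 85.3 nt.

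The feedback genes of FGF and ERK signals had values near those of the other immediate early genes, with a median of 67.1 nt over 9 tested genes, 6 below the median of all genes, 4 below the lower quartile and 1 above the upper quartile. That gene was Etv4 with 96.5 nt from 17 transcripts, named after its value had been seen. Dusp6, an ERK phosphatase gene, had 55.3 nt, but 36.1 nt in replicate 1 and 71.1 nt in replicate 2 (SD 24.8, n = 2). Spred1, an inhibitor of this pathway, was steadier with 57.4 and 59.3 nt (SD 1.39). Spred2 had 57.9 nt, Dusp1 67.1 nt, Etv5 72.5 nt from 280 transcripts and Etv1 76.4 nt. The list medians by replicate were 59.4 and 73.2 nt, and 58.5 and 72.2 nt for the other immediate early genes, on 4 to 8 genes.

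The partners of the members were spread on both sides of the median. Among 5 tested genes of the Myc network (median 78.1 nt), Mga had 37.99 nt from 112 transcripts (SD 4.96, n = 2), whereas Zbtb17 had 72.9 nt and Mxi1, a Max-binding repressor, 81.9 nt. Of the 11 Jun partners and kinases (median 69.5 nt), 6 lay below the median of all genes and 4 above the upper quartile. Atf2 was at 31.6 nt and Creb1 at 48.5 nt, and the kinase genes Mapk3 and Mapk8 at 89.9 and 106 nt, with Atf4 at 89.4 nt. Of the 8 tested genes among E proteins, SMADs and other BMP genes (median 82.5 nt), 2 lay below the lower quartile and 2 above the upper one. Here the E protein genes Tcf12 and Tcf3 had 55.4 and 95.5 nt, Bmpr1a, a BMP receptor, 56.6 nt and Smad4 78.5 nt.

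For orientation, 3 further lists were placed on the same scale. The list named for naive pluripotency factors, which also holds the shared factors Pou5f1, Sox2 and Sall4, had a median of 77.7 nt over 11 genes. Of its naive factors, Zfp42 had 52.6 nt, Nr0b1 73.0 nt, Tfcp2l1 87.6 nt and Esrrb 93.8 nt, and of the shared ones Sall4 had 75.02 nt and Pou5f1 107 nt. Glycolytic enzymes had 95.7 nt over 15 genes, 9 of them above the upper quartile, with Hk2, Pfkp and Pgam1 at 54.3, 73.0 and 74.5 nt and Pkm, Ldha and Pfkl at 115, 116 and 128 nt. Cytosolic ribosomal protein genes had 89.7 nt over 66 genes, 35 of them above the upper quartile, with Rpl9, Rpl14 and Rpl5 at 25.03, 44.0 and 48.2 nt and Rpl39l, Rps21 and Rpl26 at 117, 120 and 125 nt. The value of Rpl9 joined 121 nt in replicate 1, from 5 transcripts, and 19.3 nt in replicate 2. The 103 nt of Ier2 lay above the medians of both the glycolytic and the ribosomal list.

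**Figure D4:**
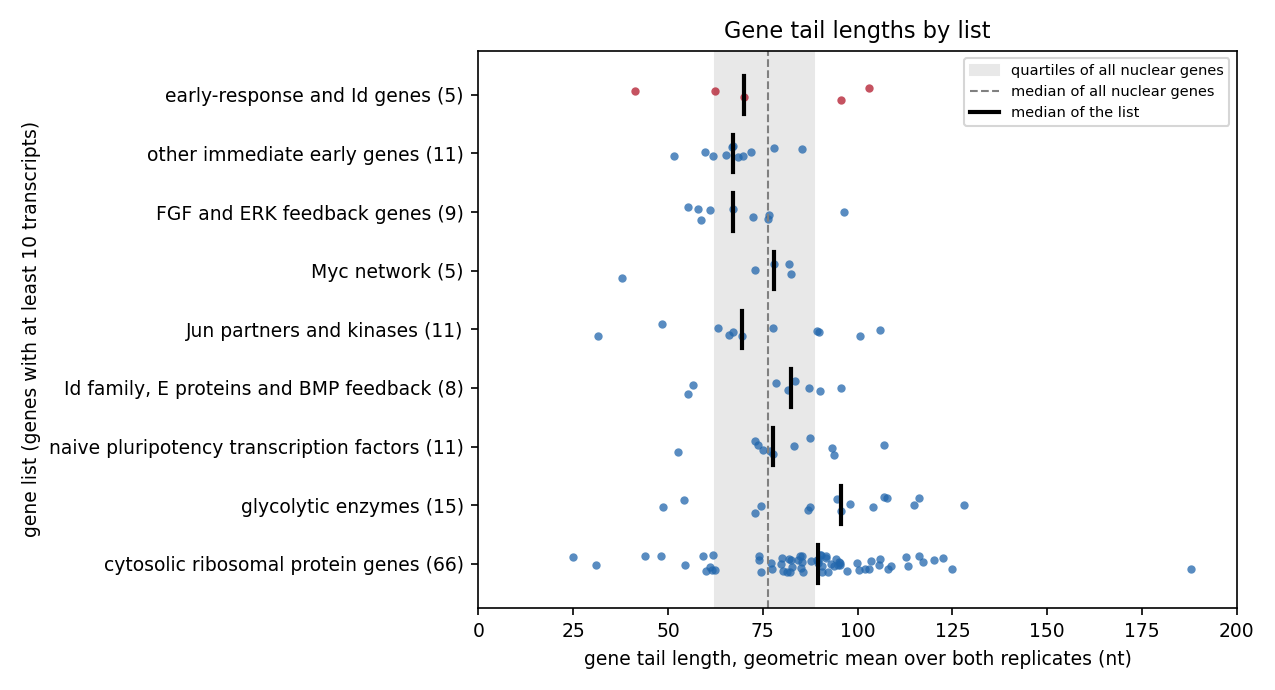
Gene tail length over both replicates (geometric mean in nt, x axis) for each tested gene of the members (red) and of 8 other lists (blue), with the number of genes in parentheses, black bars for list medians, a grey band for the quartiles and a dashed line for the median of all tested genes. The members span from 41.3 to 103 nt, while the 11 other immediate early genes sit between 51.6 and 85.3 nt.

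For the 3 members with most transcripts, genes with at least 100 transcripts were ranked by how alike their shares over the 6 length classes were, as the summed absolute difference over 2, which is 0 for equal and 1 for separate shares. Ier2 was nearest to Ndufb6 (0.00802), Pfdn2 (0.0389) and the transcribed pseudogene Rps4l (0.0437) out of 1517 genes. Mycn was nearest to Itgb1 (0.0503), Asf1b (0.0562) and Faf1 (0.0651) out of 1516. Myc, with 50 transcripts, had no gene as near, and its nearest were Dhx40 (0.0732), Pafah1b1 (0.0858) and Cwf19l2 (0.0862). By gene value Ndufb6 was at 106 nt, Itgb1 at 62.0 nt and Dhx40 at 42.9 nt.

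The 10 genes other than Mycn with as high a share of tails of 6 to 15 nt were named after their values had been seen. Among them, Rest, which encodes a repressor of neuronal genes, had 32 of 162 such tails (19.8%), Jade1 59 of 385 (15.3%), and Suz12, a Polycomb subunit gene, 32 of 224 (14.3%). The median over the 1517 genes was 0.552%, and 546 genes had no such tail.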

How the data were processed

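PAIso-seq reads of 1 sample (2 barcoded replicates, 24 h) were used. Per the study's methods and the labels, the authors made consensus reads, split them by barcode, aligned them to mm10 with minimap2 (version 2.17), took the soft-clipped 3′ end as the tail, dropped reads without one and used featureCounts 2.0.1 to assign genes. The strand setting was not given in the sources used here. The deposited table gives, for each read, whole-number counts of passes and of A, C, G, T and non-A bases in the tail. The labels do not tie barcodes to replicate numbers, so replicates follow the barcode order.

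Tail length was the count of A plus non-A bases. Reads of 7 or more passes and genes of 10 or more transcripts were kept, and gene values are geometric means. With 1 group, no test was run. Values are given per replicate, with SD (n = 2) and 95% Wilson or order-statistic intervals. The depth was 246316 and 455660 transcripts. Named genes were the 10 members, the 3 shortest and 3 longest of each other list with at least 20 transcripts (all where 6 or fewer) and the 3 genes nearest in length classes. One gene that this rule names is not reported here. Members and lists were chosen with earlier results of these data known. Scripts used Python 3.11.15, pandas 2.3.3 and scipy 1.17.1 and were tested on simulated data. Alternatives changed the pass, length and transcript minimums, the summary, the annotation and the replicates. No column of another sample was present.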

Additional observations from a re-analysis of the deposited data

Results flagged for a closer look

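The comparisons left out reads of fewer than 7 passes, and among these 18 came from the members, more than the 3 reads that a count of 0 allows: 7 of Mycn, 6 of Ier2 and 5 of Myc. Their tails ran from 10 to 218 nt with a median of 65 nt, beside 90 nt for the 51533 such reads of all nuclear genes. By gene the medians were 137 nt for Ier2, 57 nt for Mycn and 35 nt for Myc, and no such read came from the other 7 genes. With groups of 2 replicates, no sample was tested for standing apart from its group.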

How the results depend on the processing

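The members' median minus that of all genes was -6.36 nt. The SD of the replicates (9.47 nt) came from 3 members in replicate 1 and 4 in replicate 2. The difference kept within 1 such SD under 12 of 15 alternatives, but its sign turned under 7 of the 15. It was 3.53 nt with at least 8 passes, where Id3 dropped below 10 transcripts, 3.84 nt with tails of at least 15 nt and 6.01 nt with the arithmetic mean per gene. With either replicate left out it ran from -14.8 to -1.40 nt. The share of tails of 1 to 30 nt ran from 13.6 to 15.6% with either replicate left out. Without Mycn it was 11.8% and without Ier2 19.5%, both alternatives chosen after seeing the data. The share of tails with a base other than A ran from 6.83 to 13.6% with either replicate left out. Its SD was therefore wide (4.81 percentage points), and all 9 alternatives run kept within it. The members' number was 392 CPM with mitochondrial transcripts counted in the total and 442 with no filter on passes. For 5 single members, 45 of 55 values stayed within 1 SD. The arithmetic mean took Myc from 41.3 to 65.3 nt, Mycn from 62.4 to 85.7 nt, Id3 from 70.0 to 99.8 nt and Ier2 from 103 to 115 nt. The median per gene took Mycn to 82.5 and Ier2 to 111 nt. Tails of at least 15 nt took Myc to 60.2 and Mycn to 85.5 nt. For 11 of the 95 Ier2 reads, the sequencing well number occurred more than once among all reads. With such reads left out, Ier2 was at 106 nt. Without replicate 2, Myc was at 63.2 nt. The share of Mycn tails of 6 to 15 nt stayed between 11.8 and 15.4% under 5 alternatives added after seeing the data. No paired analysis was possible because all reads came from a single group.

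Depth limits the scarce members most. Genes of 10 to 29 transcripts differed between the replicates by a median of 23.5 nt, those of 30 to 99 by 14.2 nt and those of 100 to 199 by 8.36 nt. Reads without a tail were not in the table, so fully deadenylated mRNAs are not counted.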
